A study of Mus musculus with 2 samples.

Results

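The genes described here encode CTCF and the cohesin complex, as the set Ctcf, Rad21, Smc1a, Smc3, Stag1, Stag2, Nipbl, Pds5a and Pds5b. They were chosen by symbol, and all 9 were found among the 22605 genes of the deposited table, in 28 of its 55432 transcript rows. For each gene the transcript covering the most windows was used. Open chromatin was measured by DHS-seq, in which nuclei are digested lightly with DNase I and the short fragments released between cuts in open DNA are sequenced. The first group was untreated M1 cells, a mouse myeloid leukemia line kept as immature progenitors, and the second was M1 cells given interleukin-6 (IL-6), which drives them toward macrophages. The treatment text shared by both labels gives 4 to 5 days of IL-6, and no duration is stated for this library itself. There was 1 library in each condition and both came from the same line, so no difference below has a replicate check and no p-value is given. The 95% intervals given with the ratios reflect counting error alone, so they describe this pair of libraries and say nothing on how cultures vary.

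CTCF is a zinc finger protein that binds DNA at specific sites and stops loops of chromatin from growing past them. Cohesin is a ring of SMC1A, SMC3 and RAD21 with a STAG1 or STAG2 subunit, and it holds sister chromatids together and extrudes chromatin loops. NIPBL loads the ring and drives extrusion, while PDS5A and PDS5B bind the ring and regulate its release and its acetylation. Genes of this complex are recurrently mutated in human myeloid leukemia. DNase I signal over these genes shows how accessible their own chromatin was, and it measures neither their expression nor where CTCF or cohesin was bound.

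The signal is the number of reads in 700-bp windows that touch the coding span of a gene, from start codon to stop codon. These spans are mostly intron. Coding exons made up from 1.5% of the window bases in Stag1 to 11.7% in Ctcf. The start site of the transcript used lies inside the windows only where its start codon is close to it. This was so for 2 of the 9 genes, Smc1a and Smc3, whose start codons lie 104 and 142 bases downstream of their start sites. In the other 7 genes the start site of this transcript was outside the windows, 695 bases away in Pds5a, 8.61 kb in Rad21, 26.6 kb in Ctcf, 42.2 kb in Pds5b, 51.0 kb in Stag2, 61.5 kb in Stag1 and 70.1 kb in Nipbl. These 7 upstream promoters are therefore not analysed here. Shorter annotated transcripts of Ctcf, Stag1 and Pds5b start inside the windows, among them protein-coding ones of Stag1 (at 100745469 and 100790027) and of Pds5b (at 151558878). Below, a start site inside or outside the windows always refers to the transcript used.

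The promoter sequences of Smc1a and Smc3 are shown because the windows of these genes hold the start site of the transcript used. They were read from NCBIM37, from 250 bases before the annotated GENCODE M1 start site to 50 bases from it, and capitals mark exact matches to the motif letters GGGCGG (Sp1, either strand) and TTTCCCGC (E2F, either strand). Smc1a lies at chrX:148450721-148451020 and Smc3 at chr19:53674638-53674937, both on the plus strand.
Smc1a: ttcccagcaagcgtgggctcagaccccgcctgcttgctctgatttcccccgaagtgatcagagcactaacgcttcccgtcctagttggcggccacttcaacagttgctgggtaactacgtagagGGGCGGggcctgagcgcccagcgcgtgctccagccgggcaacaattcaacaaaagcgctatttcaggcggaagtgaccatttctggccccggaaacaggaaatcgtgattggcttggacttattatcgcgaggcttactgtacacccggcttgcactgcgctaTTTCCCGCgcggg
Smc3: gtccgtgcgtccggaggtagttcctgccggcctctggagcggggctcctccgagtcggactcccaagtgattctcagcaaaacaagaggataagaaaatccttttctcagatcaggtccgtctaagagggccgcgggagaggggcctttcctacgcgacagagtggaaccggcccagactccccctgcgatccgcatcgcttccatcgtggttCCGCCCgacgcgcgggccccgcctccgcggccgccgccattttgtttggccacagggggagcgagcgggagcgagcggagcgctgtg

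The Smc1a promoter had 23 CpG dinucleotides and 58.3% G+C, and the Smc3 promoter had 32 CpG and 65.3% G+C. The medians over 22575 promoters of the same length were 12 CpG and 55.3% G+C. The RefSeq promoter shares all 300 bases with the Smc1a window and 298 bases with the Smc3 window. GGGCGG occurred once in each, beginning 126 bases before the Smc1a start site and, on the minus strand, 37 bases before that of Smc3, and it was present in 44.2% of all promoters. TTTCCCGC occurred once, beginning 37 bases downstream of the Smc1a start site, and in 1.38% of all promoters. The other letters searched, on both strands, had no match in either window. These were GGNGGCAG (the CTCF core, in 13.6% of promoters), GCATGCGC (NRF1, 3.30%), TGACGTCA (CRE, 2.30%), its shorter form TGACGT, which overlaps it (8.49%), CCGGAAGT (ETS, 4.82%), AAGATGGC (YY1, 3.38%) and CACGTG (E-box, 7.75%). A match describes letters and not a bound site.

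With IL-6 and the deposited scaling the pooled signal of the set was slightly lower. The 1020 windows of the 9 genes held 5869 reads without IL-6 and 5146 with it, a ratio of 0.910 (95% interval 0.877 to 0.945) after the scaling of 1.03816 per IL-6 read that the deposited values carry. Pds5b (1780) and Stag1 (1546) held the most reads without IL-6, so this ratio weighs them most. Scaling to strong single windows, described at the end, put the ratios of all 9 genes above 1. The pooled ratio was lower for the 2 genes with a measured start site than for the rest. Smc1a and Smc3 together had 872 reads before and 618 after IL-6, and their ratio was 0.736 (0.663 to 0.817). The other 7 genes had 4997 and 4528 reads, and their ratio was 0.941 (0.903 to 0.980). The intervals of these 2 pooled ratios did not overlap, but they leave out the spread between genes. By itself Smc3 had a ratio of 0.809, and its interval (0.709 to 0.924) overlapped that of the 7 genes. Whether the start site has a part in this contrast was not tested.

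With the deposited scaling no gene of the set was 2-fold lower or 2-fold higher with IL-6. Scaling to strong single windows, described at the end, put all 9 at least 2-fold higher. For comparison, 18473 genes of the whole table exceeded 21 reads in at least 1 library, and of these 13.4% were lower by 2-fold or more and 1.71% were higher by 2-fold or more. The interval lay below 1 in 3 genes of the set (Smc1a, Smc3 and Pds5b), against 34.4% of all these genes, and above 1 in 0 genes of the set, against 29% of all. As 3 of 9 is close to the share of all genes, the count below 1 does not set these genes apart. The count of 0 above 1 is under the 29% of all genes, and this difference was not tested. When the libraries were instead scaled to the other genes of each gene's chromosome, the interval stayed below 1 for Smc1a, reached 1 for Smc3 (0.777 to 1.01) and Pds5b (0.873 to 1.003), and lay above 1 for Rad21 (1.01 to 1.49). The median log2 ratio of the set was −0.08, and that of the 18473 genes was 0.03.

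**Figure D1:**
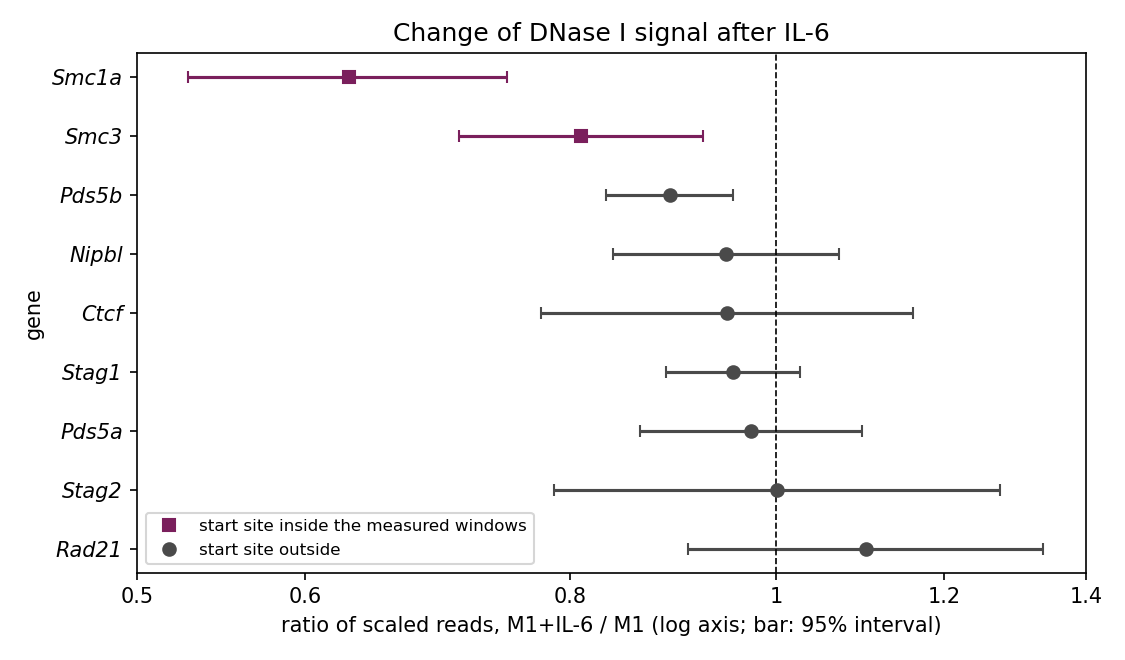
Ratio of scaled reads, IL-6-treated over untreated M1 cells (log axis), for each gene, with the 95% interval as a bar. Squares are the genes whose start site lies inside the measured windows (Smc1a, 0.629, and Smc3, 0.809), and circles are the other 7, of which only Pds5b (0.891) has an interval below 1.

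Ctcf, the DNA-binding protein at loop anchors, lies on chromosome 8, plus strand, with 27 windows from 108187101 to 108206000 (NCBIM37). The 208 reads of M1 cells gave 7.70 reads per window (SD between windows 5.25), and the 190 reads of IL-6-treated cells gave 7.31 scaled reads per window (SD 7.24). The ratio of 0.948 (0.775 to 1.16) included 1, so the level over the span was not distinguishable between the libraries at this depth. The spread of reads between windows had different values in the libraries. The variance between windows divided by their mean, taken on reads before scaling and equal to 1 when reads fall at random, went from 3.58 to 6.90, and Ctcf was the only gene of the set in which it was higher with IL-6. It stood at the 40.4 percentile of genes of similar signal in M1 cells and at the 90.3 percentile in IL-6-treated cells. The strongest window of the span held between 12 and 33 reads without IL-6 and between 14 and 41 with it. These bounds overlap, so a stronger single window was not resolved, and the counting error of the variance over mean was not estimated. Here and below, genes of similar signal are those whose reads per window, summed over both libraries, lie within 10%, and the bounds on the strongest window are those that the sum and the SD of whole reads allow.

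Rad21, the subunit that closes the ring and is cut by separase at anaphase, lies on chromosome 15, minus strand, with 28 windows from 51795101 to 51814700. It had 211 reads in M1 cells, or 7.54 per window (SD 5.04), and 224 reads in IL-6-treated cells, or 8.31 scaled reads per window (SD 4.22). The ratio of 1.10 was the highest of the set, and its interval (0.909 to 1.34) included 1. The variance over mean was 3.38 and 2.06. The strongest window held 11 to 33 reads in the untreated library and 10 to 28 in the treated one. Against genes of similar signal Rad21 was on the even side in both, at the 37.1 and 18.5 percentile of variance over mean.

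Smc1a, an ATPase subunit of the ring, lies on the plus strand of chromosome X, with 66 windows from 148450401 to 148496600. It had 355 reads in M1 cells, or 5.38 per window, and 215 reads in IL-6-treated cells, or 3.38 scaled reads per window. The ratio of 0.629 (0.528 to 0.747), a log2 ratio of −0.67, was the lowest of the set. Among 1340 genes of similar signal this log2 ratio was at the 5.30 percentile. The SD between windows was 19 in M1 cells, well above the mean, and 4.87 in IL-6-treated cells. The variance over mean went from 67.1, at the 99.1 percentile of genes of similar signal, to 6.75, still at the 95.3 percentile. These values require that the strongest window held at least 72 and at most 157 reads in M1 cells, and at least 10 and at most 40 reads in IL-6-treated cells, or 41.5 after scaling. With the deposited scaling the ranges do not overlap. In M1 cells a single 700-bp window held at least 72 of the 355 reads on 66 windows, and no window reached that number of reads with IL-6. With the scaling to strong single windows the IL-6 range became 36.8 to 147 and overlapped that of M1 cells. The same bounds leave 198 to 283 reads for the remaining Smc1a windows without IL-6 and 175 to 205 with it. Their ratio lies between 0.642 and 1.07, so these values allow a lower signal outside the strongest window but do not require it.

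The deposited means do not give the position of the strongest Smc1a window. The first window of the span holds the start site of Smc1a at 148450971 and also that of Ribc1 on the opposite strand, at 148450838, 133 bases away. Signal in this window cannot be assigned to one of these promoters. The coding span of Ribc1, 8 windows beginning 5600 bases from those of Smc1a, had 29 and 22 reads, a ratio of 0.788 (0.431 to 1.42). A processed pseudogene, Gm15267, also starts within the Smc1a windows.

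Smc3, the other ATPase of the ring and the subunit whose acetylation stabilizes cohesin, lies on chromosome 19, plus strand, with 64 windows from 53674601 to 53719400. The 517 reads of M1 cells gave 8.08 per window (SD 13.2), and the 403 reads of IL-6-treated cells gave 6.54 scaled reads per window (SD 5.43). The ratio was 0.809 (0.709 to 0.924), at the 17.2 percentile of genes of similar signal. The variance over mean went from 21.5 to 4.35. The strongest window held 30 to 111 reads without IL-6 and 11 to 47 with it. As in Smc1a the variance over mean was lower with IL-6, but the bounds on the strongest window overlap here. The intervals of the Smc1a and Smc3 ratios overlap as well. In M1 cells Smc3 had 1.5 times the reads per window of Smc1a (1.31 to 1.72), and in IL-6-treated cells 1.93 times (1.63 to 2.29).

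**Figure D2:**
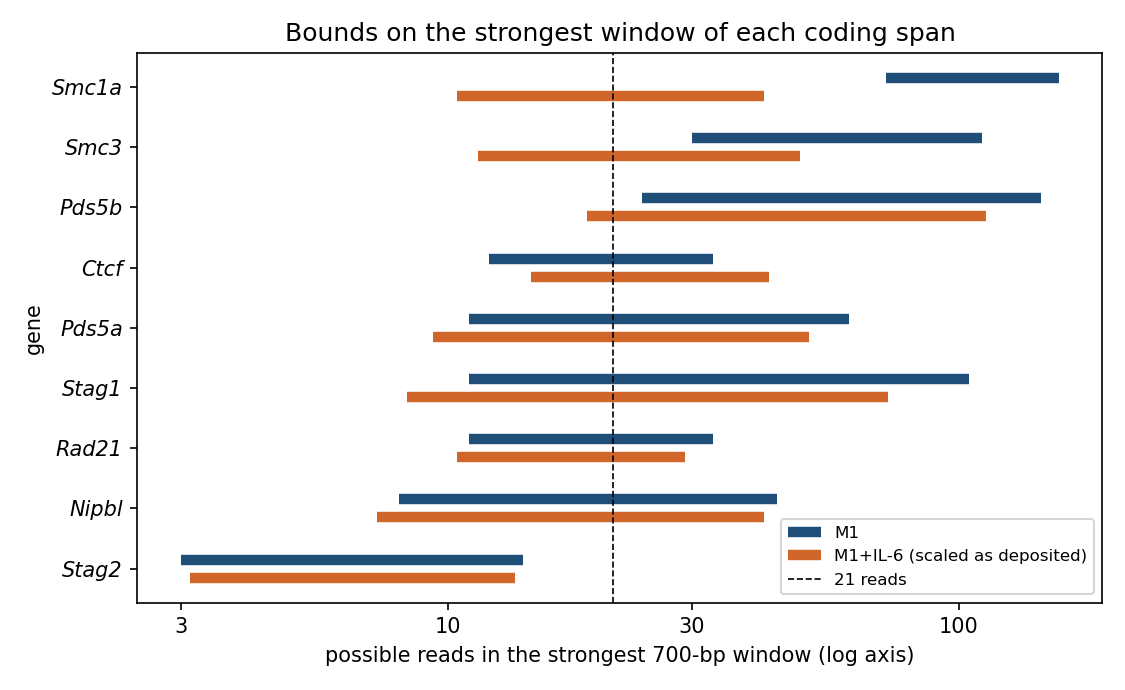
Lowest and highest possible number of reads in the strongest 700-bp window of each span (log axis), in M1 cells and in IL-6-treated cells after scaling, with a dashed line at 21 reads. The bars of Smc1a do not overlap (72 to 157 against 10.4 to 41.5), and those of the other 8 genes do. With the scaling to strong single windows those of Smc1a overlap too.

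The STAG subunits are alternative partners of the ring that contact CTCF. Stag1 lies on chromosome 9, plus strand, and has the longest span of the set, 360 windows from 100605401 to 100857400. It had 1546 reads in M1 cells, or 4.29 per window (SD 5.35), and 1422 in IL-6-treated cells, or 4.10 scaled reads per window (SD 3.69), a ratio of 0.955 (0.888 to 1.03). Stag2 lies on chromosome X, plus strand, with 106 windows from 39554901 to 39629100. It had 142 and 137 reads, or 1.34 reads per window in each library (SD 1.39 and 1.30), a ratio of 1.00 (0.786 to 1.28). Stag1 had 3.21 times the reads per window of Stag2 in M1 cells (2.70 to 3.83) and 3.06 times in IL-6-treated cells (2.56 to 3.67). Stag2 had the lowest variance over mean of the set, 1.45 and 1.21, and at most 14 and 13 reads in its strongest window. It also had the lowest level of the set. Against genes of similar signal its variance over mean was at the 43.3 and 31.4 percentile, and Rad21 was lower, at 37.1 and 18.5.

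The Stag1 span has 11 listed transcripts, and those that share a boundary separate it into parts. The first 48 windows, from 100605401 to 100639000, begin at the window of the start codon and hold 3 of the 33 coding exons. They had 326 reads in M1 cells, or 6.79 per window, and 222 in IL-6-treated cells, or 4.80 scaled reads per window. Their ratio was 0.707 (0.593 to 0.841). The other 312 windows had 1220 and 1200 reads, or 3.91 and 3.99 per window, a ratio of 1.02 (0.942 to 1.11). The intervals of these 2 ratios do not overlap, so the ratio near 1 of the whole span covers a lower 5′ stretch and a remainder that was near 1 as a whole. The 5′ stretch was 1.74 times the rest per window in M1 cells (1.53 to 1.96) and 1.2 times in IL-6-treated cells (1.04 to 1.39). Its strongest window held 17 to 63 reads without IL-6 and 8 to 31 with it.

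Within the remainder of Stag1 the parts varied around equal signal. The next 55 windows had 217 and 229 reads, a ratio of 1.10 (0.906 to 1.33). A stretch of 29 windows had 132 and 104 reads, a ratio of 0.818 (0.626 to 1.07), and the following 68 windows had 191 and 225 reads, a ratio of 1.22 with an interval that lay just above 1 (1.004 to 1.49). The 143 windows toward the 3′ end had 604 and 574 reads, a ratio of 0.987 (0.879 to 1.11). In the remainder 0 parts had an interval below 1, and the part of 68 windows had one above 1. The start site of the transcript used is 61.5 kb upstream of the whole span and is not covered.

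**Figure D3:**
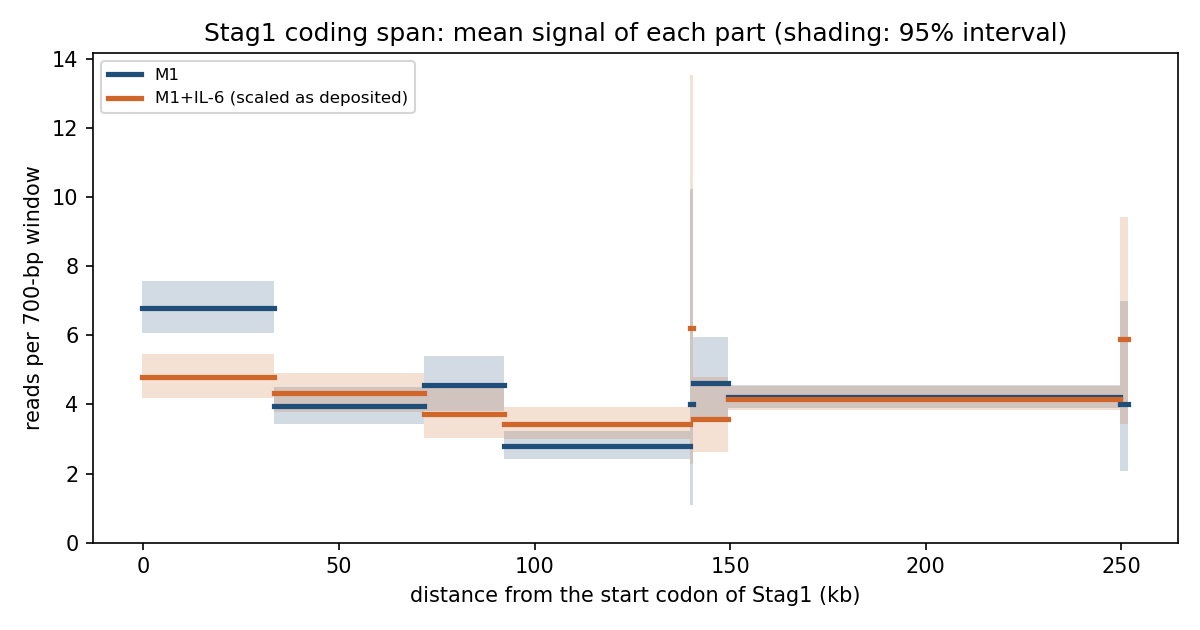
Reads per 700-bp window in each separable part of the Stag1 coding span against the distance from its start codon in kb, with 95% counting intervals as shading, in M1 cells and in IL-6-treated cells after scaling. In the first part M1 cells had 6.79 and IL-6-treated cells 4.80 reads per window, and in the remaining 312 windows the libraries had 3.91 and 3.99.

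In Stag2 the same separation was limited by depth. Its first 7 windows had 12 and 9 reads, a ratio of 0.779 (0.290 to 2.01), and the other 99 windows had 130 and 128 reads, a ratio of 1.02. A part of 21 windows had 35 and 22 reads, a ratio of 0.653 (0.365 to 1.14), and the largest part, of 78 windows, had 95 and 106 reads, a ratio of 1.16 (0.870 to 1.54). All these intervals include 1, and no 5′ difference was detectable at this depth.

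Nipbl, the loader, lies on chromosome 15, minus strand, with 119 windows from 8241101 to 8324400. It had 550 reads in M1 cells, or 4.62 per window (SD 3.72), and 502 in IL-6-treated cells, or 4.38 scaled reads per window (SD 3.51). The ratio of 0.948 (0.838 to 1.07) included 1. The spread of reads was also alike in the libraries, with a variance over mean of 2.99 and 2.70 and a strongest window of 8 to 44 and 7 to 40 reads.

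Of the PDS5 genes, Pds5a lies on chromosome 5, minus strand, with 118 windows from 66005801 to 66088400, and Pds5b on the same chromosome, plus strand, with 132 windows from 151518501 to 151610900. Pds5a had 560 and 525 reads, or 4.75 and 4.62 per window (SD 5.32 and 4.32), a ratio of 0.973 (0.862 to 1.10). Pds5b had 1780 and 1528 reads, or 13.5 and 12 per window (SD 11.5 and 8.96), a ratio of 0.891 (0.832 to 0.955). Pds5b was the deepest gene of the set, and its interval did not reach 1 although the ratio was close to it. Its log2 ratio of −0.17 was at the 42.7 percentile of genes of similar signal, near their middle. Per window it had 2.84 times the reads of Pds5a in M1 cells (2.58 to 3.13) and 2.60 times in IL-6-treated cells (2.35 to 2.88).

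A shorter transcript of Pds5b isolates 59 windows in the middle of its span, from 151558401 to 151599700. The first of them holds the start site of this transcript at 151558878. They had 869 and 816 reads, or 14.7 and 14.4 per window, a ratio of 0.975 (0.885 to 1.07). The 73 windows of both ends together had 911 and 712 reads, or 12.5 and 10.1 per window, a ratio of 0.811 (0.735 to 0.896). The ends had an interval below 1 and the middle did not, and the 2 intervals overlap slightly. Overlap alone does not decide whether the parts differ, and the difference between their ratios was not tested.

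Ordered by level, Pds5b was highest and Stag2 lowest in both libraries, 10.1 times apart per window in M1 cells (8.48 to 12) and 8.96 times in IL-6-treated cells (7.52 to 10.7). In M1 cells Smc3, Ctcf and Rad21 followed Pds5b with overlapping intervals, then Smc1a, Pds5a, Nipbl and Stag1, where each overlapped its neighbour. In IL-6-treated cells Rad21, Ctcf and Smc3 again overlapped their neighbours, as did Pds5a, Nipbl and Stag1. Smc1a moved from rank 5 to rank 8, below Stag1 and above Stag2 with no overlap to either. Among all genes the level of Smc1a went from the 34.3 to the 15.6 percentile. In M1 cells Pds5b stood at the 73.4 percentile, Smc3 at 52.0, Ctcf at 49.6, Rad21 at 48.8 and Stag2 at 8.05.

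**Figure D4:**
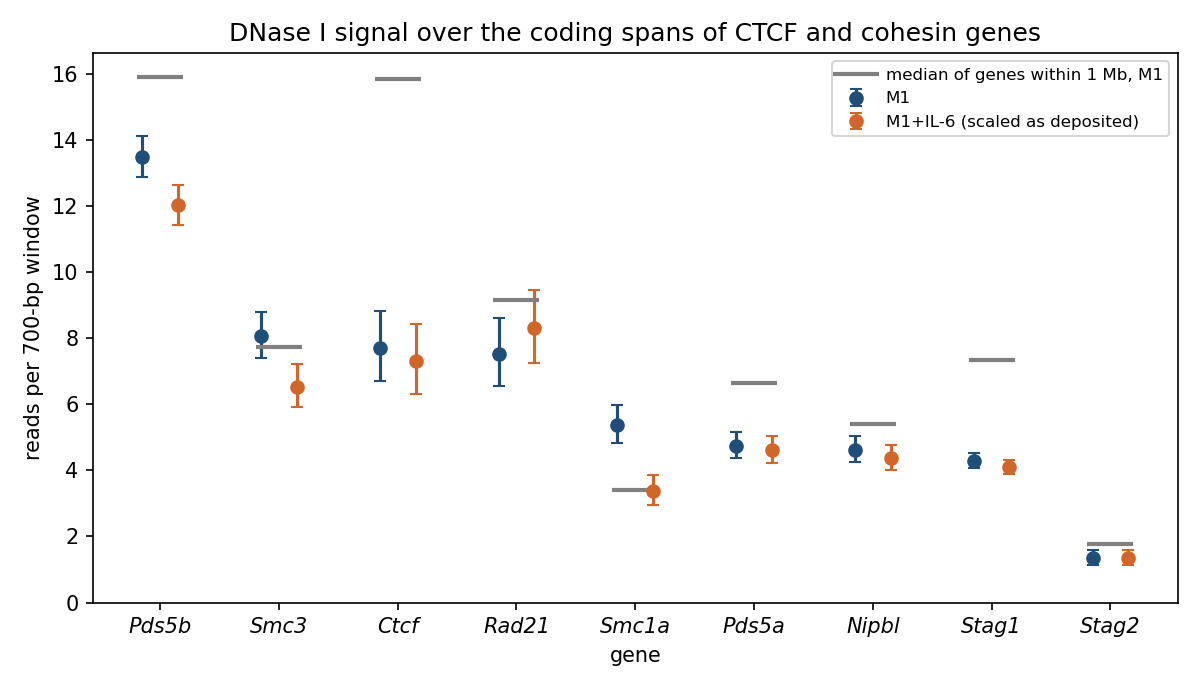
Reads per 700-bp window with 95% counting intervals for each gene in M1 cells and in IL-6-treated cells after scaling, with a gray bar at the M1 median of the genes within 1 Mb. Pds5b is highest and Stag2 lowest in both libraries, and Ctcf (7.70 reads per window) lies below the median of its neighbors (15.8), which range from 0.3 to 268.

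The levels were also set beside those of the surrounding genes. Stag2 had 1.34 reads per window where the 6 genes within 1 Mb had a median of 1.78 in M1 cells, and the other genes of chromosome X had a median of 1.87 against 7.76 for all genes. Smc1a, on the same chromosome, had 5.38 where the 16 genes within 1 Mb had a median of 3.39. The low level of Stag2 was shared by the genes around it, and Smc1a stood at the 84.4 percentile of chromosome X. The level of Smc1a includes its strongest window, which held at least 72 of its 355 reads in M1 cells. Chromosome 15 had a median of 14.6, and its members Rad21 (7.54) and Nipbl (4.62) were both below it, with neighbors at 9.16 and 5.40. Ctcf at 7.70 lay below the median of 15.8 of its 71 neighbors, which ranged from 0.3 to 268. Neighbors were not matched for whether their windows hold the start site. The median log2 ratio of the neighbors was between −0.15 (Smc1a) and 0.21 (Rad21 and Stag2), and that around Smc3 was 0.14 where Smc3 itself was at −0.30. The part of these surroundings in the levels was not tested.

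Unevenness was lower with IL-6 in 8 of the 9 genes. Over all genes with more than 21 reads and more than 1 window, 72.9% of 18319 were likewise more uneven in M1 cells, so this direction was common. Against genes of similar signal, the highest percentiles in M1 cells were those of Smc1a (99.1), Smc3 (84.3) and Stag1 (82.4), and with IL-6 these genes were at 95.3, 70.4 and 64.5.

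**Figure D5:**
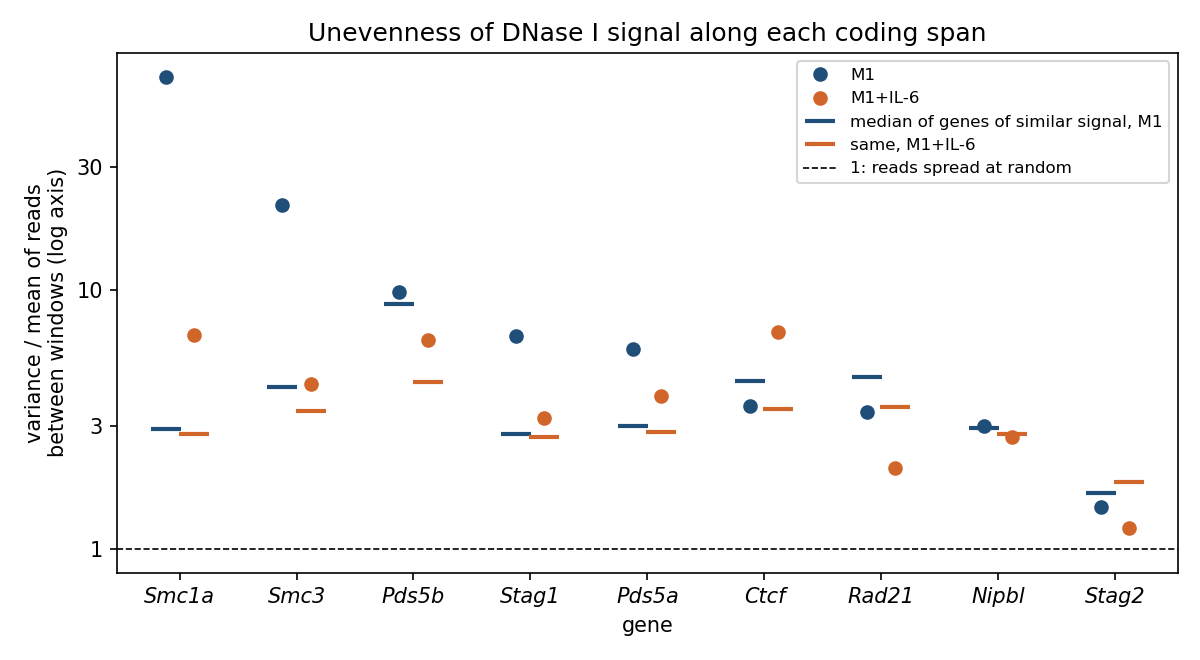
Variance of reads between windows divided by their mean (log axis) for each gene in both libraries, with a line at the median of genes of similar signal and a dashed line at 1, the value for reads spread at random. Smc1a is at 67.1 in M1 cells and 6.75 with IL-6, and Ctcf alone is higher with IL-6 (3.58 and 6.90).

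All genes were then split by whether the windows hold the start site. Among genes with as many windows as those of the set (27 to 360), the 4321 with the start site inside had a median log2 ratio of −0.06 (quartiles −0.46 and 0.35), and 42.8% had an interval below 1 and 34.3% above 1. The 3798 with the start site outside had a median of 0.17 (quartiles −0.10 and 0.38), and 18.8% had an interval below 1 and 45.3% above 1. Of the 7 genes of the set of this kind, 1 was below 1 and 0 were above 1. Smc1a at −0.67 was below the lower quartile of the first kind and Smc3 at −0.30 was within its quartiles. Of the 7 genes with the start site outside, 6 lay between −0.08 and 0.14, within the quartiles of the second kind, and Pds5b at −0.17 lay below them. All 9 genes were below the median log2 ratio of genes of similar signal, Rad21 only slightly (48.2 percentile). Against all genes 8 were below the median, and Rad21 was at the 55.5 percentile.

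The genes whose levels were most like those of Ctcf over the 2 libraries, among 2588 with a like number of windows (within 25%), were Ccnj (161 and 148 reads) and Ap3m2, at distances of 0.0073 and 0.021 on the log2 scale. For Rad21 they were Insig2 (157 and 169 reads) and Hepacam of 2911 genes, at 0.014 and 0.021. The likeness rests on only 2 values for each gene.

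A wider list of 32 genes of the cohesin cycle, condensin, the SMC5/6 complex and CTCF partners was described in the same way. All 32 were found, 15 had an interval below 1 and 8 above 1 (34.4% and 29% of all genes), and the median log2 ratio was −0.10. Of the 32, 2 were at least 2-fold lower, where 13.4% of all genes were. Maz, a zinc finger protein found with CTCF at loop anchors, had 372 and 132 reads, and its ratio was 0.368 (0.300 to 0.450). Ldb1, which joins enhancers to promoters, had 525 and 197 reads, and its ratio was 0.390 (0.329 to 0.460). Of 7 genes of this group, 6 had an interval below 1 and Zfp143 did not (1.04).

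The regulators of the cohesin cycle were mixed. Mau2, which loads cohesin together with NIPBL, had a ratio of 0.742 (0.665 to 0.828), and Wapal, which opens the ring, 1.14 (0.951 to 1.37). In the acetylation cycle Cdca5, which encodes sororin, had 0.564 (0.441 to 0.717) and the deacetylase gene Hdac8 had 1.29 (1.16 to 1.43). At anaphase cleavage Pttg1, encoding securin, had 0.527 (0.388 to 0.711) and Espl1, encoding separase, 0.660 (0.597 to 0.730). Of the shugoshin genes, whose products protect cohesin at centromeres, Sgol1 had 0.926 (0.667 to 1.28) and Sgol2 had 1.29 (1.004 to 1.67). Both genes of the SMC5/6 core were below 1, and the condensin genes were split, with 3 of 8 below 1 and 2 above, close to the 34.4% and 29% of all genes. Ncapg was the lowest of these at 0.514 (0.428 to 0.614).

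Of the meiotic or germline paralogs Smc1b, Rec8, Stag3, Rad21l and Ctcfl, 4 had an interval above 1 and 0 below, where 29% and 34.4% of all genes did. Rad21l, the meiotic kleisin paralog of Rad21, had 79 and 125 reads, and its ratio of 1.64 (1.23 to 2.21) was the highest of the wider list. Rec8 followed with 1.36 (1.03 to 1.82), and Esco2, an SMC3 acetyltransferase, had 1.31 (0.924 to 1.86). Of the 13 genes of the wider list with the start site inside, 9 had an interval below 1, against 6 of the other 19. Over all genes with more than 1 window the shares were 44.3% and 21.8%, so the same contrast was present in the whole table.

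Counted over spans that share no window, on chromosomes 1 to 19 and X, the untreated library held 9102320 reads and the treated library 8544903. Markers gave only a weak check of the labelled cell type. The 8 myeloid genes had 7.86 to 90.5 reads per window in M1 cells (median 20.2) and 7 genes of other lineages had 3.09 to 22.1 (median 7.5), so the ranges overlap and 0 markers of other lineages were without reads. In IL-6-treated cells the 8 myeloid genes had 5.49 to 23.9 reads per window and 7 of them had an interval below 1, where 34.4% of all genes did. The start site lay inside the windows in 5 of the 8, and all 5 were among those below 1. The 7 genes of other lineages had 3.11 to 26.7 reads per window with IL-6 (median 9.23), and 0 had an interval below 1 and 2 above 1. The scaling between the libraries decided on which side of 1 the ratios of the set lay, except for Rad21. The Rad21 ratio was above 1 under every scaling used. When the IL-6 library was scaled so that strong single windows kept their median, all 9 genes of the set were at least 2-fold higher.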

How the data were processed

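DHS-seq was done by the authors on 1 library of M1 cells and 1 of IL-6-treated M1 cells. Per the study's methods and the submitters' processing notes, reads were aligned to NCBIM37 with BWA and summarized with Seqmonk. The deposited signal values are the mean and SD over 700-bp windows, tiled from the chromosome start, that touch each coding span. This window size gave the listed window number in 100% of 55432 rows. Coding spans matched GENCODE M1 in 99.9% of rows.

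Reads were recovered as mean times windows divided by the value of 1 read (1.0 in M1, 1.03816 in IL-6), and all rows were within 0.05 of a whole read. The recovered sum of squared reads per span bounds its strongest window. Parts of spans were taken as differences between transcripts sharing window boundaries. Ratios keep the deposited scaling, with Clopper-Pearson 95% intervals, and levels have exact Poisson intervals. The log2 ratio adds 0.5 reads. As each condition has 1 library, no test was made. Recovery, parts and intervals were tested on simulated data. All 6758 rows and 4914 parts were recovered, and the bounds held in all 2755 genes. The interval held in 187 of 200 changed genes. Each of these was given the same fold over all its windows, so a change in a single window was not simulated.

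The genes and lists were chosen with earlier results of these data known. Genes named are the 9, genes overlapping them, those of the wider list at least 2-fold changed, and otherwise its 3 highest and 3 lowest with at least 100 reads. Others of that list, and Ribc1 and Gm15267, whose start sites lie in the Smc1a windows, were named after their values were seen. Spi1 was matched by its older symbol Sfpi1. The 2 genes most like Ctcf and Rad21 were those at the smallest distance in log2 reads per window. Alternatives covered the scaling, the transcript, the reads added, the fold, the filter and the matching. Python 3.11.15, numpy 2.4.6, pandas 2.3.3, scipy 1.17.1 and matplotlib 3.10.9 were used.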

Additional observations from a re-analysis of the deposited data

How the results depend on the processing

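Of 155 alternative values for 32 results, 114 stayed within the interval or within 1.5 times the count, 36 moved and 5 reversed. Of the 114, 7 ratios crossed to the other side of 1 without leaving the interval. Scaling to the median of 544 single windows that reached 22 reads in each library shifted every log2 ratio by 1.83. It gave ratios of 3.36 for Ctcf, 3.91 for Rad21, 2.23 for Smc1a, 2.87 for Smc3, 3.39 for Stag1, 3.55 for Stag2, 3.36 for Nipbl, 3.45 for Pds5a and 3.16 for Pds5b, of 2.51 and 3.62 for the 5′ stretch and the rest of Stag1, of 2.76 and 3.62 for those of Stag2, and a median log2 ratio of 1.73 for the wider list. The ratios of Smc1a, Smc3, Pds5b, the Stag1 5′ stretch and the median of the wider list reversed. Under it 0 genes of the set had an interval below 1, 9 had one above 1 and 9 were at least 2-fold higher. By the bounds on the strongest window, compared after seeing the data, 0 genes were then lower, where Smc1a was under each other scaling, and 2 (Ctcf and Rad21) were higher. Over all genes this scaling left 16 at least 2-fold lower and 15360 higher, against 2475 and 315 as deposited. It selects windows that are strong in both libraries and moves all genes alike, so the order of the ratios was kept. The other scalings common to all genes shifted the log2 ratios by −0.05 to 0.04, and scaling by chromosome by −0.01 to 0.15. With no scaling 4 genes of the set had an interval below 1, as Stag1 joined them at 0.920 (0.855 to 0.989). Scaling to the other genes of the same chromosome left 1 interval below 1 (Smc1a, 0.680) and put 1 above 1 (Rad21, 1.23), with Smc3 at 0.888 and Pds5b at 0.936. The transcript with the highest mean gave 0.707 for Stag1, 0.779 for Stag2 and 0.975 for Pds5b, since it covers only a part of the span. At 1.5-fold, 1 gene (Smc1a) was lower. Without the filter on low values 4.83% of all genes were at least 2-fold higher. Matching to all genes in place of genes of similar signal put Smc1a at the 18.8 percentile. No paired analysis was possible because only 1 library per condition was measured. Depth limits Stag2, Ctcf and Rad21 most, whose intervals reach from 0.775 to 1.34.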
